A study of Mus musculus with 8 samples.

Results

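The genes described here are 10 antioxidant genes and targets of the transcription factor NRF2, chosen by name: *Sod1*, *Sod2*, *Cat*, *Gpx1*, *Prdx1*, *Nqo1*, *Hmox1*, *Gclc*, *Txnrd1* and *Nfe2l2*. All 10 were among the 16686 genes with counts in the deposited table, and all 10 were among the 12542 genes that passed the filter on low counts and were tested. RNA was sequenced from the tibialis anterior (TA), a fast-twitch muscle of the lower leg, of 4 WT mice and 4 C2-/- mice, with 1 library per mouse. All 8 mice were males on the FVBN background, and the age label and the extraction protocol give 22 months, whereas the growth protocol names a much younger age, alike for both groups. The C2-/- mice lack fast myosin binding protein-C throughout the body, because a stretch of exons of *Mybpc2* was replaced by a Neo cassette between LoxP sites. There were no young mice among these libraries, so age was shared by both groups and its effect was not compared.

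NRF2, the protein encoded by *Nfe2l2*, is kept scarce in resting cells by KEAP1, which hands it to a ubiquitin ligase. When oxidants or electrophiles modify KEAP1, NRF2 accumulates, pairs with a small MAF protein and binds antioxidant response elements near its target genes, among them *Hmox1*, *Nqo1*, *Gclc* and *Txnrd1*. Contracting muscle makes superoxide at its mitochondria and membranes. Superoxide dismutases turn it into hydrogen peroxide, which catalase, glutathione peroxidases and peroxiredoxins then remove.

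None of the 10 genes differed between C2-/- and WT muscle beyond the spread between mice. The log2 fold changes lay between −0.35 for *Txnrd1* and 0.12 for *Nqo1*, with 2 genes higher and 8 lower in C2-/- and a median of −0.18, beside a median of −0.02 over all tested genes. With edgeR's quasi-likelihood test, 0 of the 10 genes passed at an adjusted p of 0.05 (Benjamini-Hochberg), where 0.0319% of all tested genes passed, and 0 at an unadjusted p of 0.05, where 5.29% did. The counts were 0 as well with limma-voom and with DESeq2. The expression of the genotypes overlapped for all 10 genes, whereas 3.38% of all tested genes had no overlap. The largest contrast lay instead between 1 WT mouse and the rest: WT replicate 2 had the highest expression of the 8 mice for 9 of the 10 genes, beside 27.5% of all tested genes. This mouse was singled out after its values had been seen.

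The libraries held between 25425993 and 29747692 expected counts each, and 3 counts, the smallest level regarded as detectable, were worth 0.104 to 0.116 CPM (counts scaled to library size with TMM factors). The 10 genes were far above this level, with 139 to 8035 counts per mouse. *Mybpc2*, the targeted gene, was between 4964 and 7392 CPM in WT and between 3.85 and 38.3 CPM in C2-/- (log2 fold change −8.82, adjusted p = 0.0075 from edgeR), so every library matched its label. The fast fibre genes *Acta1*, *Ckm*, *Myh4*, *Myh1*, *Myh2*, *Tnnt3* and *Mylpf* summed to between 139967 and 181798 CPM in every mouse, as the tissue label requires. Beyond WT replicate 2, a group of 3 mice stood apart from the rest for immediate early genes: *Fos* was 70.9 CPM in WT replicate 2, 245 CPM in WT replicate 4 and 123 CPM in C2-/- replicate 2, and at most 7.80 CPM in the other 5 mice. In whole muscle, fewer cells of a type and less RNA per cell cannot be told apart. Nothing in the labels says more of the mice than that they were separate samples.

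*Nfe2l2*, which encodes NRF2 itself, lies on chromosome 2 (chr2:75675513-75704663). The WT mice had 44.5, 78.0, 42.2 and 54.5 CPM, in the order of replicates 1 to 4 that all values below follow. The C2-/- mice had 36.2, 62.3, 41.3 and 41.1 CPM. The 3 highest values belonged to the 3 mice with high *Fos*, WT replicate 2, C2-/- replicate 2 and WT replicate 4, and the genotypes overlapped. The log2 fold change was −0.28 ± 0.23 (SE, 95% interval −0.78 to 0.22, unadjusted p = 0.247). C2-/- replicate 2 decided the overlap, since the other 3 C2-/- mice were below all 4 WT mice, where 2.62% of all tested genes were lower without overlap. Without that mouse the log2 difference was −0.46, with an unadjusted p of 0.0546 from edgeR. C2-/- replicate 2 was singled out from these same values. The lack of overlap without it and the smaller p therefore follow in part from that choice. *Nfe2l2* was the only gene of the 10 whose log2 fold change stayed negative in every alternative fit, between −0.46 and −0.05. The part of the immediate early response in this order of the mice was not tested.

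*Hmox1* encodes haem oxygenase-1, which breaks down haem and is a widely used readout of NRF2 activity (chr8:75093618-75100593). The WT mice had 5.82, 24.9, 5.19 and 6.41 CPM. In C2-/-, the values were 7.87, 8.52, 10.8 and 8.60 CPM. WT replicate 2 was above every other mouse, the remaining 3 WT mice were below every C2-/- mouse, and the C2-/- mice lay in between. With all mice, the log2 fold change was −0.24 ± 0.46 (SE, 95% interval −1.26 to 0.78, unadjusted p = 0.608). Without WT replicate 2, the direction turned and *Hmox1* was higher in C2-/-, at 8.94 ± 1.27 CPM (SD, n = 4) against 5.81 ± 0.608 CPM (SD, n = 3), with a log2 fold change of 0.63 (95% interval 0.28 to 0.97). Its unadjusted p from edgeR's quasi-likelihood test was then 0.00223 and its adjusted p 0.421, so the difference did not pass the test over all genes. It was the only gene of the 10 with an unadjusted p under 0.05 in that comparison, where 4.05% of all tested genes were higher with such a p, and the only one without overlap, where 3.83% of all tested genes were higher without overlap. Since WT replicate 2 was singled out from these same values, this contrast follows in part from that choice.

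Markers of macrophages, which take up haem and can express *Hmox1*, moved in part with these values. The summed expression of 8 macrophage genes (*Adgre1*, *Csf1r*, *Cd68*, *Cd163*, *Mrc1*, *C1qa*, *C1qb* and *Lyz2*) was 35.7 to 74.7 CPM in the 3 WT mice and 60.0 to 97.3 CPM in C2-/-, and 87.1 CPM in WT replicate 2. Of these 8 genes, 7 were higher in C2-/- with all mice, 0 of them with an unadjusted p under 0.05 from edgeR. C2-/- replicate 3 had the highest value of its group both for the macrophage genes and for *Hmox1*. However, it was above WT replicate 2 for the macrophage genes (97.3 against 87.1 CPM) and below it for *Hmox1* (10.8 against 24.9 CPM). WT replicate 3 had the lowest *Hmox1* of all mice, 5.19 CPM. Its macrophage sum, 74.7 CPM, was above those of C2-/- replicates 1, 2 and 4 (60.0, 66.6 and 70.0 CPM). The haemoglobin and other erythroid genes summed to 6300 CPM in WT replicate 2, but also to 4344 CPM in WT replicate 1 and 5886 CPM in C2-/- replicate 4, where *Hmox1* was at 5.82 and 8.60 CPM. The part of either cell type in the *Hmox1* values was not tested.

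*Nqo1* encodes a quinone reductase and is another standard NRF2 target (chr8:107388225-107403205). Its expression was low throughout, at 9.25, 13.5, 6.91 and 12.5 CPM in WT. The 4 C2-/- mice had 11.5, 12.8, 9.29 and 12.3 CPM. The C2-/- values lay within the range of WT, and WT replicate 2 stood out little, at 1.17 times the median of the other 7 mice. The log2 fold change was 0.12 ± 0.21 (SE, 95% interval −0.34 to 0.59), the highest of the 10 genes.

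*Gclc* encodes the catalytic subunit of the enzyme that limits glutathione synthesis (chr9:77754535-77794489). WT muscle had 13.7, 20.0, 9.56 and 11.0 CPM, and C2-/- muscle had 12.0, 12.9, 9.93 and 12.6 CPM. WT held both the highest and the lowest value, and the log2 fold change was −0.19 ± 0.22 (SE, 95% interval −0.68 to 0.29).

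*Txnrd1*, the cytosolic thioredoxin reductase that keeps thioredoxin reduced, was also far higher in 1 mouse than in the others (chr10:82833951-82897724). WT replicate 2 was at 193 CPM, and the other WT mice were at 72.5, 69.0 and 79.4 CPM. The C2-/- mice were at 76.6, 83.1, 84.4 and 80.1 CPM. Apart from WT replicate 2, the mice differed by no more than 1.22-fold from highest to lowest. The log2 fold change was −0.35 ± 0.30 (SE, 95% interval −1.02 to 0.31) with all mice and 0.14 (95% interval −0.07 to 0.36) without WT replicate 2. With that mouse, the spread of *Txnrd1* within genotypes exceeded that of 83.8% of all tested genes, and without it only that of 4.21%. The *Txnrd1* interval also holds *Eid3* and a noncoding RNA, and whether counting used the strand is not given in the sources used here.

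The enzymes that remove superoxide came next. *Sod1* encodes the cytosolic copper and zinc superoxide dismutase (chr16:90220762-90226333), and its expression was 88.9, 130, 61.5 and 75.1 CPM in WT and 82.2, 71.2, 87.1 and 66.0 CPM in C2-/-. The genotypes overlapped, with the WT mice spread 2.11-fold from lowest to highest (log2 fold change −0.21 ± 0.21 SE, 95% interval −0.68 to 0.25). *Sod2* encodes the manganese enzyme of the mitochondrial matrix (chr17:13007839-13018119), with 286, 223, 300.1 and 243 CPM in WT and 299, 247, 238 and 236 CPM in C2-/-. *Sod2* was the exception among the 10 genes: WT replicate 2 had its lowest value, not its highest. It was also the steadiest of them in fold from the highest to the lowest mouse, at 1.34, and its log2 fold change was −0.05 ± 0.13 (SE, 95% interval −0.34 to 0.25).

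The genes of the enzymes that remove peroxide likewise showed no difference beyond the spread between mice. *Cat*, which encodes the peroxisomal enzyme catalase (chr2:103453904-103485153), had 106, 157, 84.6 and 90.6 CPM in WT and 99.3, 100.4, 117 and 94.3 CPM in C2-/-. The 3 WT mice other than replicate 2 overlapped with C2-/-, and the log2 fold change was −0.09 ± 0.19 (SE, 95% interval −0.51 to 0.32). *Gpx1*, the ubiquitous glutathione peroxidase (chr9:108339080-108340342), had 40.8, 63.0, 43.0 and 48.7 CPM in WT and 53.6, 44.3, 49.2 and 48.5 CPM in C2-/-. Its means were 48.9 CPM in both groups, with a log2 fold change of 0.00 ± 0.15 (SE, 95% interval −0.33 to 0.33). *Prdx1*, a cytosolic peroxiredoxin that is regenerated by thioredoxin and is also an NRF2 target (chr4:116685599-116700000), had 143, 174, 89.9 and 106 CPM in WT and 121, 105, 119 and 111 CPM in C2-/-. All 4 C2-/- mice lay inside the range of WT (log2 fold change −0.17 ± 0.19 SE, 95% interval −0.59 to 0.25). The *Prdx1* interval overlaps a noncoding RNA, *AV051173*, whose reads could not be told apart without strand.

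The adjusted p-values of the 10 genes from edgeR were all 0.968 or higher. Their intervals show which changes these 4 mice against 4 could not exclude: for *Sod2* and *Gpx1* the bounds were within 0.34 of 0 on the log2 scale, whereas for *Hmox1* they reached −1.26. A p-value that misses the threshold does not show that the genotypes were alike.

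**Figure D1:**
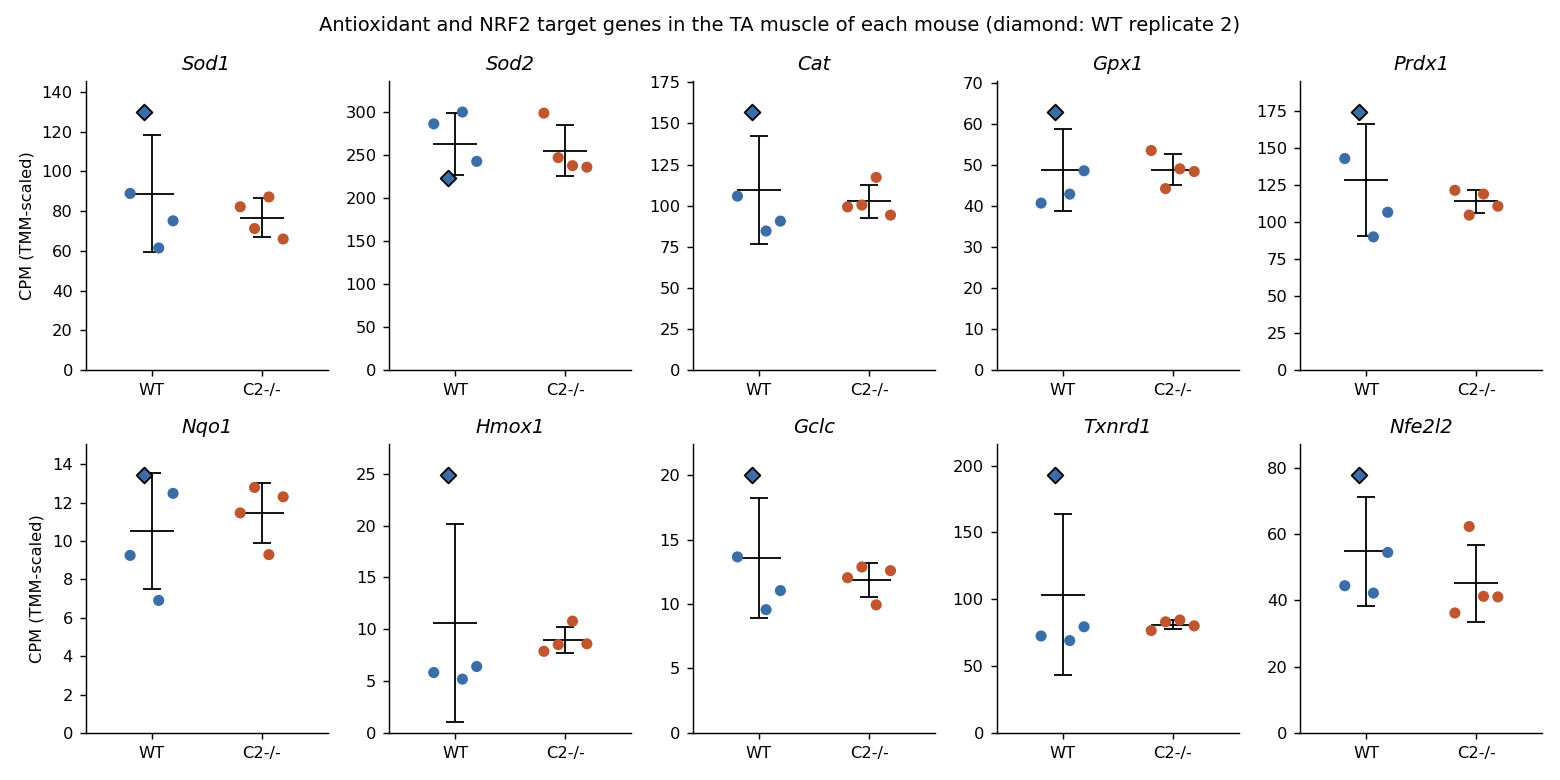
Expression of each of the 10 genes (CPM, y axis from 0) in 4 WT mice (blue) and 4 C2-/- mice (orange), where each point is a mouse, the horizontal bar is the mean and the whiskers are ± SD. The diamond, WT replicate 2, is the highest point of all panels except that of Sod2, and it stands farthest from the others for Hmox1 (24.9 CPM) and Txnrd1 (193 CPM).

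**Figure D2:**
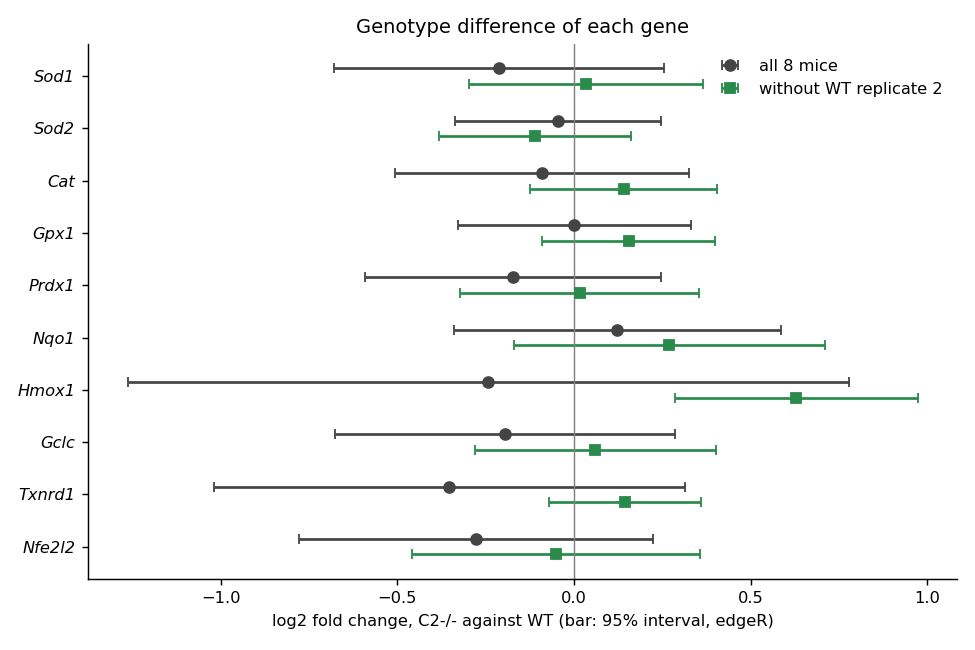
Log2 fold change of C2-/- against WT (x axis) for each gene with its 95% interval from edgeR, with all 8 mice (grey circles) and without WT replicate 2 (green squares). All intervals with 8 mice include 0, and without that mouse only the interval of Hmox1, from 0.28 to 0.97, does not.

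Since the same mouse led for 9 genes, the order of the mice was followed over the 10 genes. The log2 expression of WT replicate 2 exceeded the median of the other 7 mice by 0.70 in the median of the 10 genes. WT replicate 3 was at the other end, at −0.32, with the lowest value for 7 of the 10 genes, beside 11.0% of all tested genes. The remaining 6 mice lay between −0.08 and 0.08. The excess of WT replicate 2 was 1.65 for *Hmox1*, 1.28 for *Txnrd1*, 0.88 for *Nfe2l2*, 0.79 for *Sod1*, 0.73 for *Gclc*, 0.66 for *Cat*, 0.65 for *Prdx1*, 0.38 for *Gpx1*, 0.23 for *Nqo1* and −0.15 for *Sod2*. In a check chosen after seeing the data, the count of genes led by this mouse was 9 with median ratio size factors, and 8 with library totals alone or on the authors' TPM scale, where *Nqo1* was no longer highest there. WT replicate 3 was lowest for 7 genes with median ratio size factors, for 6 with library totals alone and for 3 on the authors' TPM scale. When WT replicate 2 was left out, 8 of the 10 genes were higher in C2-/- and 2 lower, the reverse of the split with all mice, and the median log2 fold change was 0.10. Over all tested genes, 6204 were then higher and 6336 lower. WT replicate 2 was singled out from these same values, as the highest mouse for 9 of the 10 genes. The turn therefore follows in part from that choice and says nothing certain of the genotype. Without all 3 mice with high *Fos*, 5 of the 10 genes had no overlap between the genotypes, beside 18.2% of all tested genes with so few mice. Of these, *Hmox1*, *Nqo1*, *Gpx1* and *Txnrd1* were higher and *Nfe2l2* was lower in C2-/-. The mice left out include WT replicate 2, singled out from the values of these genes, so the count of 5 follows in part from that choice. In that comparison, *Hmox1* had a log2 fold change of 0.73 (edgeR, unadjusted p = 0.00646, adjusted p = 0.881), and the other 9 genes had an unadjusted p over 0.05.

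The wider antioxidant and NRF2 pathway showed the same mouse. The pathway list holds 126 genes in 11 role groups, the 10 genes included, of which 125 were in the table and 115 were tested. WT replicate 2 was highest for 53 of the 115 genes (46.1%), and its log2 expression exceeded the median of the other mice by over 1 for 18 of them (15.7%), beside 4.64% of all tested genes. No other mouse did so for more than 2 of the 115 genes. The genes named in this and the next paragraph for WT replicate 2 were chosen after their values had been seen.

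Many of these genes are textbook NRF2 targets. *Srxn1*, which encodes sulfiredoxin, the enzyme that repairs overoxidised peroxiredoxins, was 127 CPM in WT replicate 2 and 24.9 to 34.0 CPM in the other mice. *Gclm*, the regulatory partner of *Gclc*, was 36.8 CPM there and 9.26 to 13.4 CPM elsewhere. *Osgin1*, a growth inhibitor induced by oxidative stress, was 54.6 CPM in WT replicate 2, and its next value was 22.9 CPM in C2-/- replicate 4. Ferritin light chain, an iron store encoded by *Ftl1*, was 487 CPM in that mouse and 124 to 218 CPM in the others. *Sqstm1*, which encodes the autophagy adaptor p62 that binds KEAP1, was 1376 CPM there and 426 to 662 CPM in the other mice. The genes of NADPH supply *Pgd* and *Idh1* were 21.8 and 26.6 CPM in WT replicate 2, where their highest values in the other mice were 13.0 and 13.5 CPM. This mouse was highest for 5 of the 8 genes of NADPH supply. *Tkt*, *Me1* and *Taldo1* of that group were below the median of the other 7 mice there, at −0.34, −0.23 and −0.07 (log2). In other role groups, *Gsta4* and *Ephx1* were also below it, at −0.66 and −0.30, so the list did not move as 1 block.

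Partners and rivals of NRF2 were high in the same mouse. *Maff* and *Mafk*, which encode small MAF proteins, were 15.0 and 52.0 CPM in WT replicate 2. The next values were 9.77 CPM for *Maff* and 22.2 CPM for *Mafk*, both in WT replicate 4. *Bach2*, whose protein represses genes at the same elements, was 8.28 CPM in that mouse and at most 2.94 CPM in the others. *Keap1* was 106 CPM there and 73.1 to 85.5 CPM elsewhere, an excess of 0.44 on the log2 scale. In the opposite direction, *Txnip*, whose protein binds and inhibits thioredoxin, was 174 CPM in WT replicate 2 and 385 to 670 CPM in the other mice. It was the only 1 of the 115 tested pathway genes over 1 log2 below the median of the other mice there. Of all 12542 tested genes, 770 were over 1 log2 below that median in WT replicate 2 and 582 over 1 log2 above it.

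**Figure D3:**
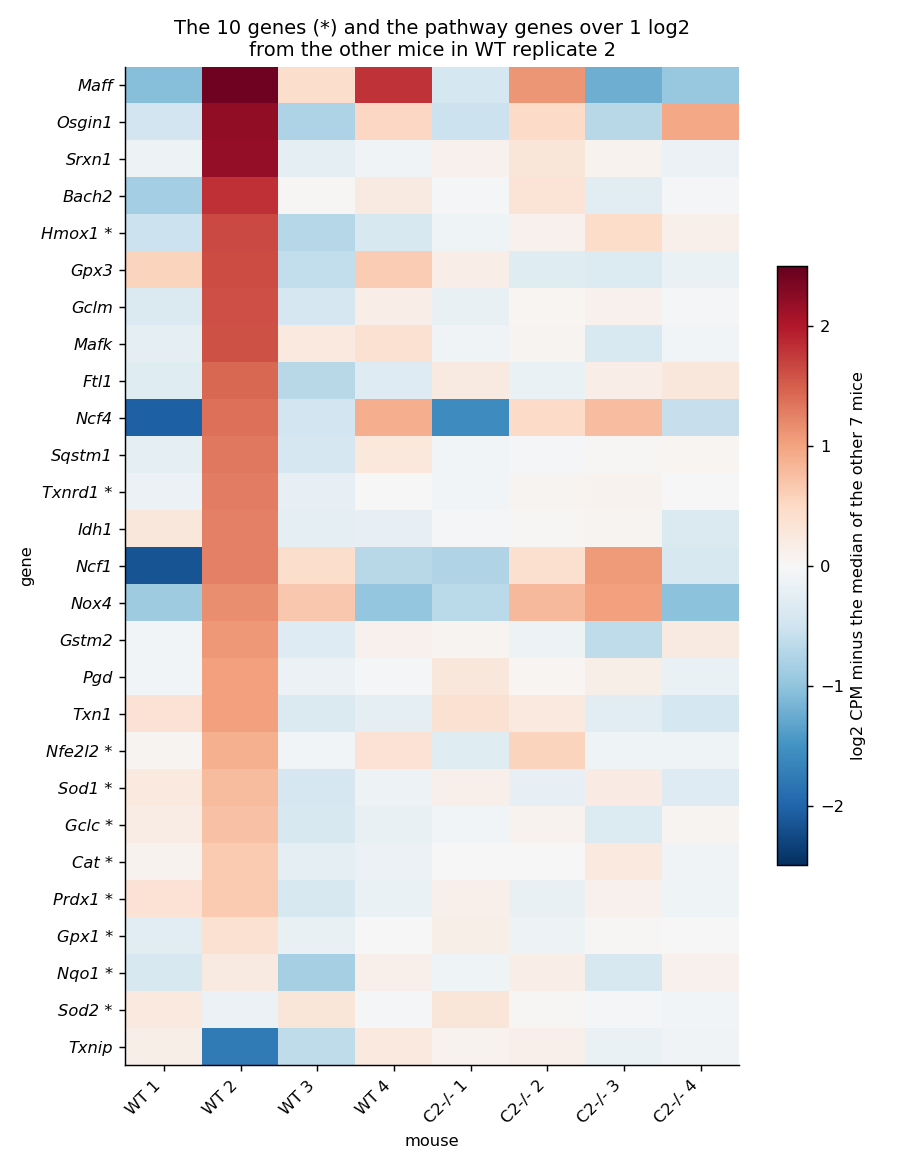
Log2 CPM of each mouse (columns) minus the median of the other 7 mice, for the 10 genes (marked *) and the 17 other pathway genes that lay over 1 log2 from the other mice in WT replicate 2, ordered by that mouse. Red is higher and blue is lower, and the column of WT replicate 2 is red for every gene but Sod2 and Txnip. The 17 other genes and the order were chosen by that mouse, so its contrast with the other columns follows in part from this choice.

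Some markers of other cells also moved with WT replicate 2. The neutrophil genes *S100a8*, *S100a9* and *Retnlg* were 12.8, 16.7 and 10.03 CPM in this mouse and at most 2.17 CPM in any other, and the 4 neutrophil genes in the table summed to 40.2 CPM there and 0.347 to 4.42 CPM elsewhere. The fibroblast genes *Col1a1* and *Col3a1* were 22.1 and 10.7 CPM in WT replicate 2, their lowest values, and 42.0 to 159 CPM and 32.0 to 150.4 CPM in the other mice. Of the other fibroblast markers, *Dcn* and *Pdgfra* were lowest in WT replicate 4 (185 and 6.99 CPM), not in WT replicate 2 (246 and 7.37 CPM). *Pi16* was lowest in WT replicate 2, at 4.01 CPM. Immediate early genes summed to 543 CPM in this mouse, but to 1227 CPM in WT replicate 4 and 762 CPM in C2-/- replicate 2, where the median excess of the 10 genes over the other mice was −0.08 and 0.05. Summed slow fibre genes (42.6 to 78.6 CPM in WT, 35.2 to 61.5 CPM in C2-/-), satellite cell genes (0.875 to 1.48 and 1.11 to 1.45 CPM), adipocyte genes (89.6 to 133 and 95.3 to 146 CPM), endothelial genes (189 to 275 and 186 to 245 CPM) and Schwann cell genes (29.7 to 79.8 and 26.9 to 61.0 CPM) overlapped between the genotypes. The part of these cells and responses in the values of the 10 genes was not tested.

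After the values of WT replicate 2 had been seen, promoters were searched for the core of the antioxidant response element, TGACNNNGC, on both strands. The RefSeq windows (GRCm38.p6) ran from 250 bases before to 50 bases after each start. The core occurred in 12.4% of 32851 promoters, and 17.1% of the tested genes with an entry had it in at least 1 promoter. It was found for 20 of 96 pathway genes with an entry (20.8%) and for 4 of 8 of the 10 genes, *Txnrd1*, *Prdx1*, *Sod1* and *Nfe2l2*. For *Txnrd1*, it was in 1 of 3 annotated promoters. *Hmox1* and *Gclc* had no entry. Of the 20 pathway genes with the core, *Msrb2*, *Me1*, *Abcc4* and *Blvra* were below the median of the other 7 mice in WT replicate 2. They were at −0.79, −0.23, −0.13 and −0.09 (log2), and the rest of the 20 were above it. Over the pathway list the median was 0.18. The part of the core in the values of this mouse was not tested. The stretches around the core are shown for these 4 genes and for *Gclm* and *Maff*, which were among the genes highest in WT replicate 2. Each is written 5′ to 3′ on the strand of its gene with the core in capitals, which reads GCNNNGTCA where the core lies on the opposite strand.

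Txnrd1 promoter, chr10:82859088-82859148, plus strand: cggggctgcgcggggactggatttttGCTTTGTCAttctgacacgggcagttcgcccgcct
Prdx1 promoter, chr4:116685440-116685500, plus strand: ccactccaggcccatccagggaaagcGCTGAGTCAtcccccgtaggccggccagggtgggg
Sod1 promoter, chr16:90220680-90220740, plus strand: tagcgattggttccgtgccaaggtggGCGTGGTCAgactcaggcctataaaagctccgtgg
Nfe2l2 promoter, chr2:75704869-75704913, minus strand: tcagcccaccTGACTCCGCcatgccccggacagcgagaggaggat
Gclm promoter, chr3:122245397-122245457, plus strand: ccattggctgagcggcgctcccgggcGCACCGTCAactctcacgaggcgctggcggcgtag
Maff promoter, chr15:79346483-79346543, plus strand: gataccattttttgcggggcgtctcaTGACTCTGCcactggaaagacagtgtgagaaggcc

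The core ended 84 bases before the start in *Txnrd1*, 125 in *Prdx1*, 48 in *Sod1*, 232 in *Nfe2l2*, 126 in *Gclm* and 104 in *Maff*. In *Prdx1*, the core contains TGACTCA, the site of AP-1, the dimer that FOS forms with JUN proteins. A match to these letters describes the sequence only, and genes without it here may have it outside the window.

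The other genes of the pathway were compared between the genotypes in their role groups. Of the 115 tested genes, 41 were higher and 74 lower in C2-/-, with a median log2 fold change of −0.06 beside −0.02 over all tested genes. At an adjusted p of 0.05, 0 of them passed with edgeR, 0 with limma-voom and 0 with DESeq2. At an unadjusted p of 0.05, edgeR gave 7 genes, 5 higher and 2 lower in C2-/-, a share near the 5.29% of all tested genes. For 4 of the 115 genes, the genotypes had no overlap in CPM, a share near the 3.38% of all tested genes. These were *Sod3*, *Glrx2* and *Akr1b8*, higher in C2-/-, and *Prdx2*, which encodes a cytosolic peroxiredoxin and was lower (log2 fold change −0.23, unadjusted p = 0.0716 from edgeR). *Prdx2* was named after its values had been seen.

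Among the superoxide dismutases and catalase, 1 of 5 genes, *Sod3*, had an unadjusted p under 0.05. *Sod3*, the secreted superoxide dismutase of the extracellular matrix, was 12.7, 12.1, 12.9 and 8.94 CPM in WT and 14.0, 17.1, 16.7 and 15.2 CPM in C2-/-. Every C2-/- mouse was above every WT mouse in CPM (log2 fold change 0.43 ± 0.14 SE, unadjusted p = 0.0129, adjusted p = 0.766 from edgeR). On the authors' TPM scale the groups overlapped, with 12.77 TPM in WT replicate 3 and 12.55 TPM in C2-/- replicate 1. The fibroblast genes *Pdgfra*, *Dcn*, *Col1a1*, *Col3a1* and *Pi16* summed to 290 to 422 CPM in WT and 464 to 636 CPM in C2-/-, and their part in *Sod3* was not tested.

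The 5 tested glutathione peroxidases went both ways. *Gpx3*, the secreted plasma form, was 482, 1013, 240.5 and 507 CPM in WT and 368, 297, 291 and 326 CPM in C2-/-. Its log2 fold change of −0.80 ± 0.34 (SE, unadjusted p = 0.0386) became −0.35 with an unadjusted p of 0.152 without WT replicate 2, and WT replicate 3 was below all C2-/- mice. *Gpx8*, a peroxidase of the endoplasmic reticulum, was higher in C2-/- at 2.29 ± 0.342 CPM (SD, n = 4) against 1.503 ± 0.419 CPM (SD, n = 4), with overlap of the groups and a log2 fold change of 0.61 (unadjusted p = 0.0380 from edgeR). Its unadjusted p lay between 0.0531 and 0.101 in edgeR fits without WT replicate 2, WT replicate 4, C2-/- replicate 1, C2-/- replicate 2 or C2-/- replicate 3. Without the mice with high *Fos*, its log2 fold change was 0.35 (unadjusted p = 0.278 from edgeR). The *Gpx8* interval overlaps another gene, *Cdc20b*, with the same uncertainty over strand as for *Txnrd1*.

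In the thioredoxin and glutaredoxin system, 3 of 10 genes were higher and 7 lower, and *Glrx2*, the mitochondrial glutaredoxin, had an unadjusted p under 0.05. Its expression was 14.5, 16.4, 15.4 and 17.8 CPM in WT and 19.5, 21.5, 19.7 and 19.1 CPM in C2-/-. These groups did not overlap in CPM, although the difference was small (log2 fold change 0.32 ± 0.11 SE, unadjusted p = 0.0167, adjusted p = 0.821 from edgeR). On the authors' TPM scale they overlapped, with *Glrx2* up to 40.95 TPM in WT and down to 33.89 TPM in C2-/-. In the supply of glutathione, 5 of 10 genes were higher, and only *Ggt7*, a member of the gamma-glutamyltransferase family, had an unadjusted p under 0.05 (log2 fold change 0.84, 0.796 to 1.504 CPM in WT and 1.30 to 2.73 CPM in C2-/-).

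*Akr1b8*, an aldo-keto reductase of aldehyde detoxification, had the smallest p-value of the list. Its expression was 1.54, 1.64, 1.42 and 1.45 CPM in WT and 2.73, 2.05, 2.91 and 2.95 CPM in C2-/-, without overlap, from 38 to 85 counts per mouse. The log2 fold change was 0.81 ± 0.21 (SE, unadjusted p = 0.00279, adjusted p = 0.571 from edgeR). It was the only 1 of the 18 genes of quinone, haem and carbonyl detoxification with an unadjusted p under 0.05, and 9 of the 18 were higher and 9 lower. The *Akr1b8* interval overlaps a pseudogene, *Gm13858*, and whether counting used the strand is not given in the sources used here.

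Of NRF2 and its regulators, 12 of 14 were lower in C2-/- with a median log2 fold change of −0.19, and 9 of the 14 were highest in WT replicate 2. *Mafk* had an unadjusted p of 0.0466 with all mice (log2 fold change −0.73) and of 0.159 without that mouse (log2 fold change −0.22). Without it, 9 of the 14 were lower, with a median of −0.04.

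In the remaining role groups, no gene had an unadjusted p under 0.05. Of the peroxiredoxins and sulfiredoxin, 1 of 7 was higher and 6 were lower. The glutathione S-transferases, which couple glutathione to reactive compounds, were higher for 5 and lower for 11 of 16 genes. NADPH supply had 2 of 8 genes higher, selenoproteins and methionine sulphoxide reductases 4 of 12, and oxidant-producing enzymes 6 of 10. The medians of these groups lay between −0.17 and 0.02. Without WT replicate 2, edgeR gave 11 of the 115 genes at an unadjusted p of 0.05 (9 higher in C2-/-, 2 lower), beside 5.89% of all tested genes. *Ftl1* was among them, at a log2 fold change of 0.44 (unadjusted p = 0.00531, adjusted p = 0.499 from edgeR) and without overlap, like *Hmox1*. WT replicate 2 was singled out from its values, and it was highest for 53 of the 115 genes. The count of 11 and the lack of overlap therefore follow in part from that choice.

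**Figure D4:**
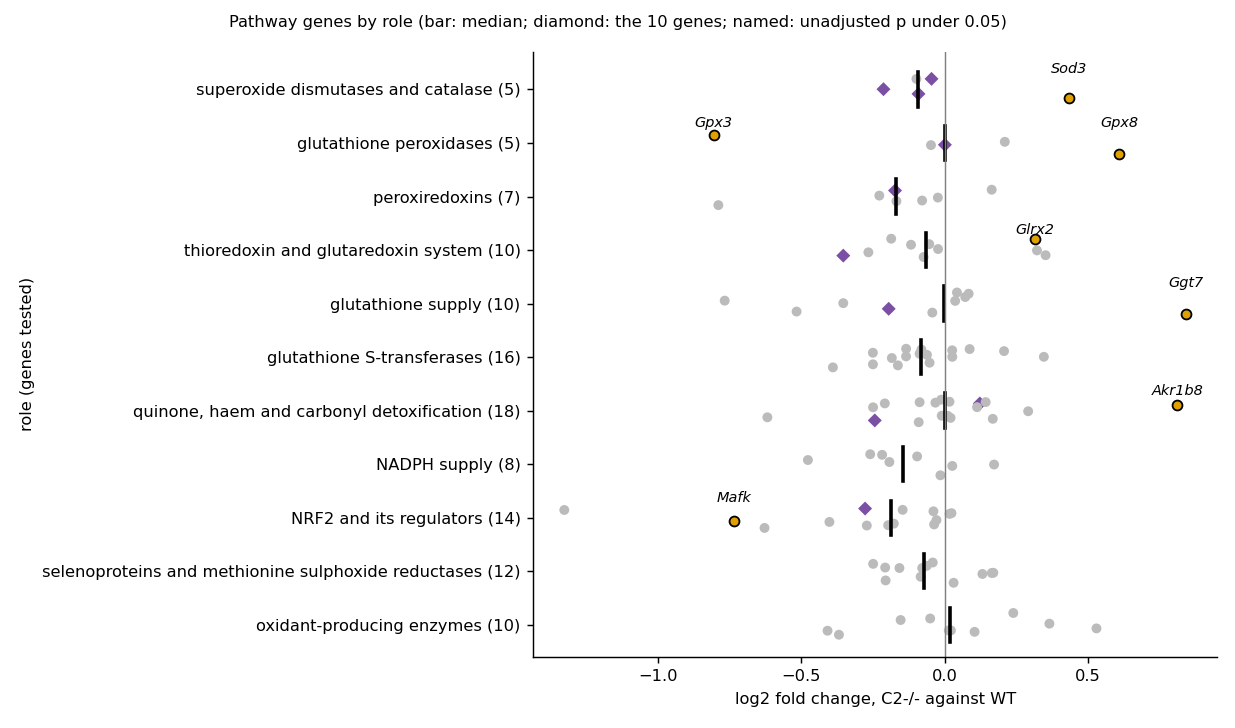
Log2 fold change of C2-/- against WT (x axis) of the 115 tested pathway genes by role group (rows, with the number of genes), where each point is a gene, diamonds are the 10 genes and the black bar is the group's median. The named genes are the 7 with an unadjusted p under 0.05, and all group medians lie between −0.19 and 0.02.

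To compare the 10 genes with each other, the authors' TPM values were used, which account for gene length. *Sod1* had the highest level, with a median of 247 TPM over the 8 mice, followed by *Prdx1* with 158 TPM, *Sod2* with 124 TPM, *Gpx1* with 90.4 TPM and *Cat* with 73.5 TPM. *Txnrd1* had 43.8 TPM and *Nfe2l2* 33.1 TPM. The lowest levels were those of *Nqo1* with 14.2 TPM, *Hmox1* with 10.1 TPM and *Gclc* with 6.88 TPM. Among neighbours in this order, the ranges over the mice were apart only between *Sod1* and *Prdx1* and between *Nfe2l2* and *Nqo1*. *Cat* was above *Txnrd1* within all 8 mice although their ranges overlapped through WT replicate 2, where *Txnrd1* reached 94.8 TPM. The other neighbours kept their order within 6 or 7 of the 8 mice, and the order of *Nqo1* and *Hmox1* was reversed in 2 mice. Of the genes named above as NRF2 targets, *Nqo1*, *Hmox1* and *Gclc* thus had the lowest levels of the 10 genes, whereas *Txnrd1* and *Prdx1* lay higher.

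**Figure D5:**
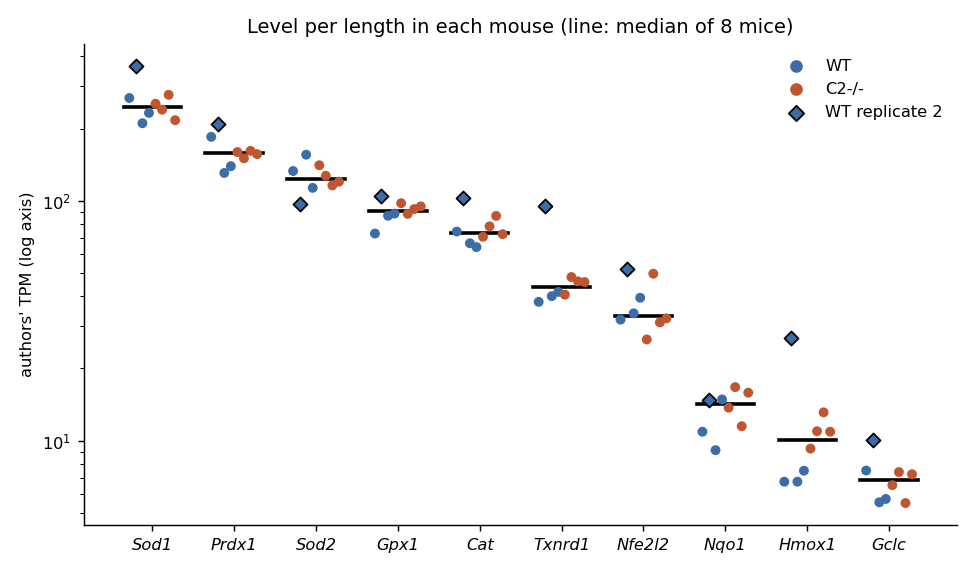
Level of each of the 10 genes in TPM as deposited (log axis) in each mouse, ordered by the median of 8 mice (line), with WT in blue, C2-/- in orange and WT replicate 2 as a diamond. Medians fall from 247 TPM for Sod1 to 6.88 TPM for Gclc, and Txnrd1 and Hmox1 are the genes in which the diamond lies farthest above the other points.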

How the data were processed

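The authors aligned reads to GRCm38.p6 with HISAT and counted them with featureCounts, as the methods state. The deposited table holds estimated counts per gene that were not normalized, of which 5.50% to 6.53% per mouse were not whole and were rounded. featureCounts gives whole counts by default, and how these values arose is not given in the sources used here. The submitters' processing notes name HISAT and Bowtie2. It also holds TPM values that the authors computed, used here only to compare levels between genes. Not used were 8 further columns of values per mouse and the columns of the authors' own comparison (fold changes and p-values). CPM were scaled with TMM factors (0.929 to 1.03), genes were filtered by edgeR's default, and genotypes were compared with edgeR's quasi-likelihood test (edgeR 4.0.16, R 4.3.3) with Benjamini-Hochberg adjustment over 12542 genes, without covariates, and with standard errors and 95% intervals from its F statistic. The script was tested on simulated data. These intervals and the p-values take in the spread between the mice of a group as well as counting error. Alternatives were other scalings and filters, limma-voom (limma 3.58.1) without and with quality weights, DESeq2 1.42.0, the replicate number as a block, leaving out each mouse, and leaving out the 3 mice with high *Fos*.

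The 10 genes, the pathway list and the markers were chosen with earlier results of these data known. Named genes are the 10, in each role group and direction up to 3 pathway genes with the smallest p among those with an unadjusted p under 0.05, and *Mybpc2*. Other genes were chosen after their values were seen. Coordinates and promoters are from RefSeq (GRCm38.p6). The deposited intervals differ from them for *Sod1*, *Sod2*, *Cat*, *Nqo1* and *Gclc*. The deposited strand of *Nqo1* and *Nfe2l2* is opposite to that in RefSeq, and whether counting used strand is not given in the sources used here, so their counts are uncertain to that extent. No copy with at least 99% identity over 400 bases was found for the 10 genes among GENCODE transcripts (blastn 2.17.0). Not tested for low counts or absent from the table were *Gpx2*, *Slc7a11*, *Gsta1*, *Gsta2*, *Gsta3*, *Gstm3*, *Gstm6*, *Gstp3*, *Mgst2*, *Nox1* and *Duox2*.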

Additional observations from a re-analysis of the deposited data

Results flagged for a closer look

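In a check of 18 genes in each of the 2 groups, 36 in all, a sample was far from the other 3 of its group in 3 cases, where chance gives about 1 in 20 (Dixon's test of the gap to the nearest sample, as a share of the group's range). *Hmox1* in WT replicate 2 was 24.9 CPM and the nearest WT mouse 6.41 CPM, a gap of 0.938 of the range. *Txnrd1* in the same mouse was 193 CPM and the nearest 79.4 CPM, a gap of 0.917. *Mybpc2* in C2-/- replicate 3 was 38.3 CPM and the nearest C2-/- mouse 4.35 CPM, a gap of 0.985, and all 4 C2-/- mice remained below every WT mouse.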

How the results depend on the processing

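No gene of the 10 and no pathway gene reached an adjusted p under 0.05 in any of the 17 alternatives. Of the 289 log2 fold changes of the 17 genes followed, 264 kept their direction, and 9 genes turned at least once. With library totals alone, *Sod2* turned to 0.0059. With limma-voom, *Hmox1* turned to 0.087, and with quality weights *Cat* turned to 0.095, *Gclc* to 0.054, *Hmox1* to 0.44, *Prdx1* to 0.0072 and *Txnrd1* to 0.032. Without the 3 mice with high *Fos*, *Cat* turned to 0.13, *Hmox1* to 0.73, *Prdx1* to 0.010, *Sod1* to 0.064 and *Txnrd1* to 0.19. When each mouse was left out, log2 fold changes ranged from −0.35 to 0.034 for *Sod1*, −0.12 to 0.029 for *Sod2*, −0.19 to 0.14 for *Cat*, −0.077 to 0.15 for *Gpx1*, −0.30 to 0.015 for *Prdx1*, −0.026 to 0.27 for *Nqo1*, −0.46 to 0.63 for *Hmox1*, −0.32 to 0.060 for *Gclc* and −0.49 to 0.14 for *Txnrd1*. WT replicate 2 decided the turns of *Sod1*, *Cat*, *Prdx1*, *Hmox1*, *Gclc* and *Txnrd1*, and the cause was not tested.

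Leaving out a mouse moved the number of the 10 genes with an unadjusted p under 0.05 between 0 and 1 and the number without overlap between 0 and 1. Without the 3 mice with high *Fos*, these were 1 and 5, from 2 WT mice against 3 C2-/- mice. Pathway genes with an unadjusted p under 0.05 numbered 4 to 11 when a mouse was left out (11 without WT replicate 2, 4 without WT replicate 4 or without C2-/- replicate 1) and 11 with quality weights, beside 7. Over all tested genes, an adjusted p under 0.05 was reached by 39 genes with DESeq2, by 2 without the 3 mice, and by 4 to 7 when a mouse was left out, most without WT replicate 2, beside 4.

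The labels number the mice 1 to 4 in both groups. Deviations of same-numbered mice correlated at 0.267, 0.04, −0.05 and 0.02, so the numbers were not taken as pairs. With the replicate block, *Hmox1* turned to 0.10, 8 pathway genes had an unadjusted p under 0.05, and no other gene of the 10 turned. With all 8 mice, the 95% interval of *Hmox1* reached from −1.26 to 0.78.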
